A study of Mus musculus with 12 samples.

Results

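The mRNAs described here are those of 7 genes whose proteins stand at the centre of Alzheimer disease, Parkinson disease and prion disease research: App, Aplp1, Aplp2, Bace1, Psen2, Sncb and Prnp. They were chosen by gene name, and they are 7 of the 55573 genes in the count table. All 7 passed the filter on low counts, which kept 16820 genes with a mean of at least 10 normalised counts. RNA immunoprecipitation followed by sequencing (RIP-seq) had been carried out on hippocampal neurons from newborn C57BL/6 mice, an inbred strain, after 14 days in culture, in 12 libraries of 4 groups with 3 replicates each. The groups were Input, which is RNA from a fraction of the lysate, and the RNA recovered with an antibody against endogenous YTHDF1 (YTHDF1 RIP), YTHDF2 (YTHDF2 RIP) or YTHDF3 (YTHDF3 RIP). No group carried a knockout, a transgene or a drug treatment, and all cultures had received cytosine arabinoside, which stops dividing glia. Tissue of a litter was pooled before plating, each replicate lysate was pooled from wells of the same plate and split between the 3 antibodies, and no pull-down with a control antibody was analysed here. Enrichment is therefore relative to Input alone, and p-values measure the spread between these libraries, which share their mice and plate to an extent not given in the sources used here.

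The YTHDF family members recognise N6-methyladenosine (m6A) in the cytoplasm, a methyl mark that the METTL3 complex places on adenosines of mRNA, often close to the end of the coding sequence. Bound mRNAs can be translated, degraded or moved to neurites. The amyloid precursor protein APP is a membrane protein of neurons, with APLP1 and APLP2 as its paralogs. The beta-secretase BACE1 makes the first cut that releases amyloid-beta from APP, and gamma-secretase, whose catalytic subunit is a presenilin such as PSEN2, makes the second. Beta-synuclein (Sncb) is a presynaptic protein of the synuclein family. Prnp encodes the cellular prion protein, a glycoprotein anchored to the cell surface.

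The letters GGACT are a core sequence in which METTL3 methylates adenosine. The 29-base windows below show, for each mRNA, the GGACT nearest to the end of its coding sequence in the main annotated transcript, as examples of places where a reader of m6A could bind. They were taken from the GENCODE M21 transcripts of build GRCm38, they are written 5′ to 3′ on the mRNA strand, and capitals mark the GGACT.
App: ggcgccatcatcGGACTcatggtgggcgg
Aplp1: agaaaccctatgGGACTatcagccatgga
Aplp2: gaacaagacgggGGACTgattggtgcaga
Bace1: ctttagtgatagGGACTgcagactcaagc
Psen2: tccatcacctttGGACTcatcttctactt
Sncb: ggaaagttatgaGGACTcaccccaggagg
Prnp: ttgtgactatgtGGACTgatgtcggcctc
The App window lies at chr16:84962807-84962835 on the minus strand, in coding exon 15 of 16, in the stretch that encodes the amyloid-beta peptide. The Aplp1 window is at chr7:30435485-30435513 (minus strand, coding exon 16 of 17), and the Aplp2 window is at chr9:31153457-31153485 (minus strand, coding exon 14 of 17). The Bace1 window is at chr9:45860764-45860792 on the plus strand, in the 3′ UTR part of exon 9 of 9, and is the only one of the 7 outside the coding sequence. The Psen2 window is at chr1:180227637-180227665 (minus strand, coding part of exon 11 of 11), and the Prnp window is at chr2:131936464-131936492 (plus strand, coding part of exon 3 of 3). The Sncb window crosses an exon junction on chromosome 13 and begins in coding exon 5 of 6. Methylation was not measured in these libraries, so a GGACT is a description of the sequence and not a methylated site.

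The number of GGACT did not order the mRNAs as their enrichment, given below, did. GGACT occurred 3 times in App, 3 in Aplp1, 2 in Aplp2, 4 in Bace1, 3 in Psen2, 2 in Sncb and 2 in Prnp, against a median of 3 over 13337 tested protein-coding mRNAs, of which 92.1% hold at least 1. Per kilobase, Psen2 (1.49) and Sncb (1.48) held the most and Aplp2 (0.550) and Bace1 (0.660) the least, beside a median of 1.04. The mRNAs differed more in length and base composition. The main transcripts of Bace1 (6058 bases, of which 4104 are 3′ UTR), Aplp2 (3634) and App (3176) were longer than the median tested mRNA of 3152 bases. Aplp1 (2343), Prnp (2184), Psen2 (2020) and Sncb (1351) were shorter. Sncb with 61.4% G and C and Aplp1 with 60.2% were among the mRNAs richest in these bases, whereas the other 5 had between 48.4% (Aplp2) and 55.1% (Psen2), beside a median of 50.3%.

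Total counts per library were between 6020072 and 38909592. Normalised levels are given as CPM, which is the count divided by the library size after scaling by edgeR's trimmed mean of M values (TMM) and set to the usual total. All 6 neuron markers were detected in every library, at a summed 1741 to 2477 CPM in Input and 745.8 to 1660 CPM in the RIPs. Microglia markers summed to 1.19 to 6.54 CPM, with up to 3 of 6 at 0 in a library, and endothelium markers to 0.711 to 4.86 CPM. Astrocyte markers, all 6 detected in every library, varied widely within groups, from 258.8 CPM in Input replicate 1 to 2527 CPM in Input replicate 3. Their sum exceeded that of the neuron markers in Input replicate 3 (neuron sum 1741 CPM). It also did in YTHDF2 replicate 2 (1310 against 745.8 CPM) and YTHDF3 replicate 3 (1557 against 884.7 CPM), and was lower in the other libraries. Oligodendrocyte lineage markers, at most 1 of 7 at 0 in a library, summed to 58.9 to 403.9 CPM in Input and 368.7 to 1467 CPM in the YTHDF1 RIP. They summed to 404.6 to 553.6 CPM in the YTHDF2 RIP and 59.9 to 571.8 CPM in the YTHDF3 RIP. The part of these glial cells in the results was not tested. In lysates of mixed cells, fewer cells of a type and less RNA per cell cannot be told apart. In the RIP libraries, recovery of each mRNA with the antibody also enters these sums, so they do not measure the cell types present.

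In Input, the lysate of the whole culture, the mRNAs spanned a wide range of abundance. Per kilobase of the main mRNA, the Input level was 344.1 ± 72.9 CPM (SD, n = 3) for App and 241.0 ± 60.1 for Aplp1. It was 130.2 ± 63.5 for Sncb, 110.3 ± 22.4 for Aplp2 and 59.3 ± 12.7 for Prnp. Bace1 followed with 14.7 ± 2.43 and Psen2 with 5.29 ± 0.407. Neighbours in this order from App down to Aplp2 overlapped between libraries, while Prnp, Bace1 and Psen2 each stood apart from the mRNA above. App's place depends on the length used: per kilobase of all its annotated exons together, which span 12996 bases and include long rare transcripts, its level was 84.1 ± 17.8 CPM, below Aplp1 at 187.2 ± 46.7.

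**Figure D1:**
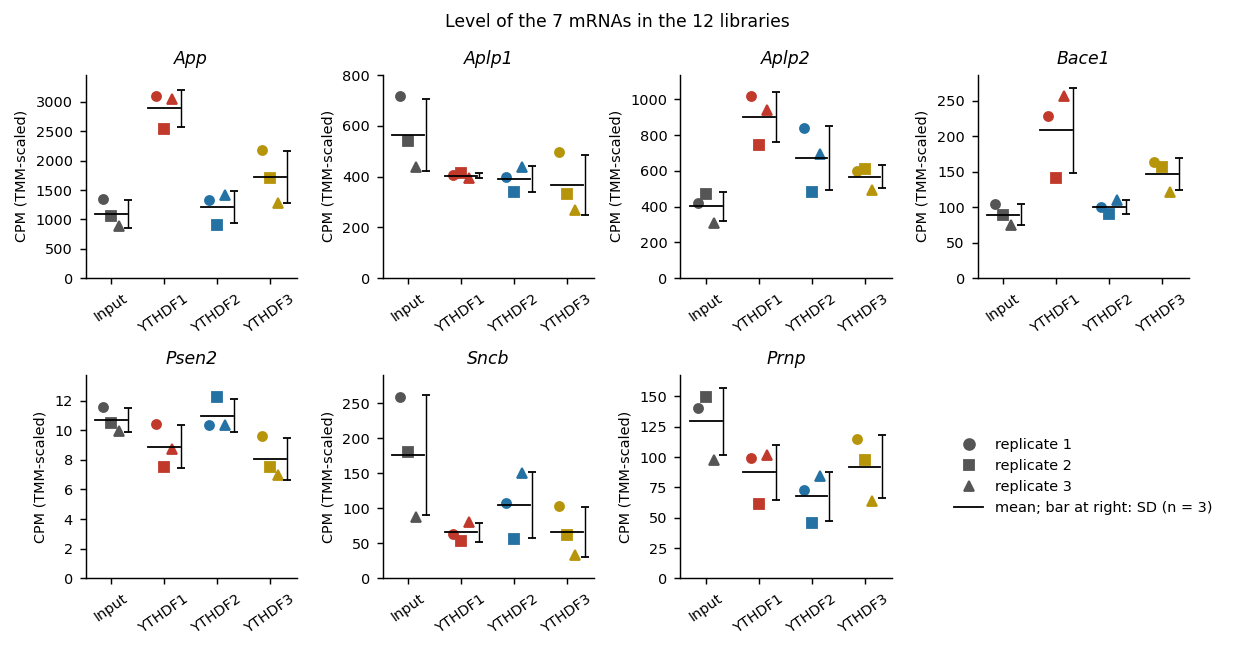
Level of each mRNA in every library, as TMM-scaled CPM on a linear axis from 0, by group. Points are libraries, with the replicate number as the symbol, lines are means and bars are SD (n = 3). App in the YTHDF1 RIP lies between 2534 and 3096 CPM, above all other libraries, and Sncb in Input spreads from 87.9 to 259.3 CPM.

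The YTHDF1 RIP divided the mRNAs. App, Aplp2 and Bace1 were enriched 2.65-, 2.24- and 2.34-fold over Input, Sncb was depleted 2.67-fold, and Aplp1, Psen2 and Prnp did not pass the test. Calls came from edgeR's quasi-likelihood test over all 16820 genes, and asked for 1 level to exceed the other by 25% or more with an adjusted p (Benjamini-Hochberg) of 0.05 or less. By that rule 3 of the 7 were enriched, where 27.5% of all genes tested were, and 1 was depleted, where 26.1% were. The median log2 fold change of the 7 was -0.27, beside 0.02 over all genes tested.

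App is the amyloid precursor. Its level was 1343, 1050.0 and 885.9 CPM in the Input libraries and 3096, 2534 and 3043 CPM in the YTHDF1 RIP. Every YTHDF1 library lay above every Input library. Of the 7 mRNAs, 5 had no overlap between the YTHDF1 and Input libraries, where 56.3% of all genes tested had none. The log2 fold change was 1.40 ± 0.27 (SE, n = 3 per group; edgeR adjusted p = 0.00113), higher than that of 85.6% of genes tested.

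Aplp2, the widely expressed APP paralog, measured 422.3, 469.5 and 310.6 CPM in Input and 1016, 744.9 and 937.8 CPM in the YTHDF1 RIP. The groups did not overlap, and the log2 fold change was 1.17 ± 0.25 (edgeR adjusted p = 0.00203). Aplp1, the paralog confined to the nervous system, went the other way in its values. Its Input libraries held 716.2, 540.4 and 437.5 CPM and its YTHDF1 libraries 405.5, 412.7 and 394.4 CPM, all of them below Input and within a narrow band. The log2 fold change of -0.48 ± 0.25 did not pass (edgeR adjusted p = 0.124).

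Bace1, the beta-secretase, rose from 103.9, 89.4 and 74.5 CPM in Input to 228.5, 140.8 and 256.6 CPM in the YTHDF1 RIP. Replicate 2 was the lowest of the YTHDF1 libraries and still above all of Input. The log2 fold change was 1.22 ± 0.24 (edgeR adjusted p = 0.00117). Psen2, a presenilin, was at the low end of what these depths resolve, with 78 to 248 counts per library over all groups. It measured 11.6, 10.5 and 9.97 CPM in Input and 10.4, 7.54 and 8.73 CPM in the YTHDF1 RIP, and the groups overlapped (log2 fold change -0.27 ± 0.20, edgeR adjusted p = 0.267).

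Sncb, beta-synuclein, was the most uneven of the 7 within Input relative to its mean. Input held 259.3, 180.4 and 87.9 CPM, and the YTHDF1 RIP held 63.1, 53.9 and 80.6 CPM. All YTHDF1 libraries were below Input, but the highest of them, 80.6 CPM, was near Input replicate 3. The log2 fold change was -1.42 ± 0.48 (edgeR adjusted p = 0.0275), and the call was lost without Input replicate 1 (-1.03, adjusted p = 0.111), without Input replicate 2 (-1.40, adjusted p = 0.0593), without YTHDF1 replicate 1 (-1.39, adjusted p = 0.0709) and without YTHDF1 replicate 2 (-1.37, adjusted p = 0.0593). Among the Input libraries, replicate 3 was the lowest in Sncb, as it was in each of the 7, and the highest in astrocyte markers. Whether these are linked was not tested. Prnp, the prion protein mRNA, had 140.7, 149.9 and 97.8 CPM in Input and 99.4, 61.6 and 101.5 CPM in the YTHDF1 RIP, with overlap (log2 fold change -0.57 ± 0.30, edgeR adjusted p = 0.136).

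The 4 calls held under each other scaling of the libraries, but those of Aplp1, Psen2 and Prnp depended on it. With library size alone the median of all genes shifted from 0.02 to -0.38 on the log2 scale, and with TMM factors from protein-coding genes to -0.22. Under these settings Aplp1 (-0.87 and -0.73), Psen2 (-0.65 and -0.51) and Prnp (-0.94 and -0.81) passed as depleted, and the split over all genes moved from 4624 enriched and 4386 depleted to 3073 and 6139, and to 3652 and 5462.

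**Figure D2:**
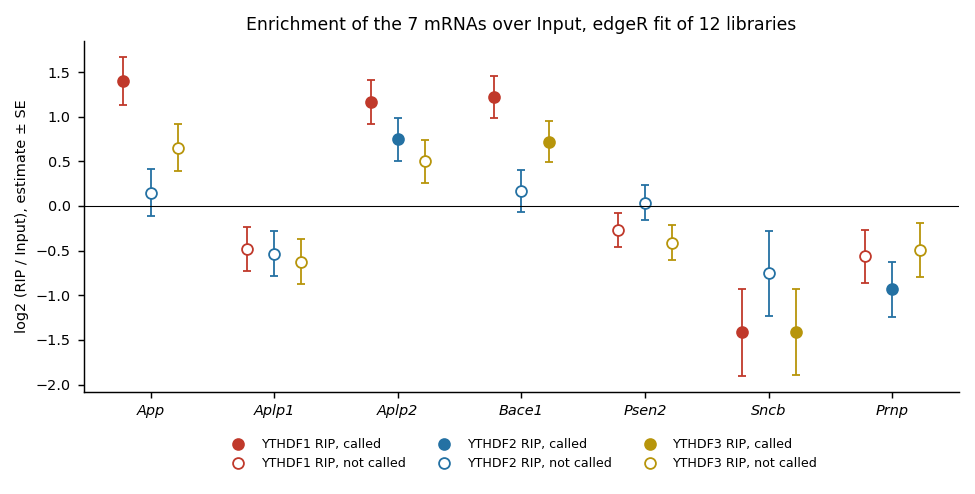
Log2 fold change of each RIP over Input for the 7 mRNAs, with its SE, from 1 edgeR fit of the 12 libraries. Filled points passed the test and open points did not. App, Aplp2 and Bace1 are above 0 in each RIP, and Aplp1, Sncb and Prnp below 0 in each.

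In the YTHDF2 RIP Aplp2 was enriched 1.68-fold and Prnp was depleted 1.91-fold, and the other 5 did not pass. That is 1 of 7 enriched, where 16.1% of all genes tested were, and 1 of 7 depleted, where 19.3% were. The YTHDF2 and Input libraries did not overlap in 3 of the 7 (Aplp1, Aplp2 and Prnp), where 53.2% of all genes tested had no overlap. The median log2 fold change was 0.04 for the 7 and 0.02 for all genes tested.

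Aplp2 had 837.5, 484.0 and 694.2 CPM in the YTHDF2 RIP. Replicate 2 was just above the highest Input library (469.5 CPM). The log2 fold change was 0.75 ± 0.24 (edgeR adjusted p = 0.0332), and it no longer passed without Input replicate 1 (0.78, adjusted p = 0.0684), without Input replicate 3 (0.56, adjusted p = 0.138), without YTHDF2 replicate 1 (0.56, adjusted p = 0.137) or without YTHDF2 replicate 3 (0.72, adjusted p = 0.0800). Prnp fell to 73.1, 45.3 and 84.7 CPM, below every Input library. Its log2 fold change was -0.93 ± 0.30 (edgeR adjusted p = 0.0329), and 4 of the 6 fits that left out 1 library lost the call, namely those without Input replicate 1 or 2 and without YTHDF2 replicate 1 or 2, with adjusted p from 0.0695 to 0.113. The Prnp transcript shares 145 exonic bases on the same strand with Prn, a gene that joins Prnp to its neighbour, and reads there were counted for both. Prn had 17 to 194 counts per library and Prnp 303 to 2971. On the opposite strand, Rnf214 shares 975 exonic bases with Bace1 and the lncRNA Gm49227 shares 113 with App, and reads were assigned by strand.

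App in the YTHDF2 RIP was at 1326, 896.3 and 1409 CPM and overlapped Input (log2 fold change 0.15 ± 0.26, edgeR adjusted p = 0.694). Bace1 at 100.7, 90.6 and 110.1 CPM also overlapped Input (0.17 ± 0.23, adjusted p = 0.599), and Psen2 at 10.4, 12.3 and 10.3 CPM also did (0.04 ± 0.20, adjusted p = 0.896). Aplp1 at 396.6, 337.5 and 436.3 CPM lay below all of Input by a small margin (-0.53 ± 0.25, adjusted p = 0.117). Sncb at 107.6, 55.8 and 149.7 CPM overlapped Input, with replicate 2 below all of it (-0.75 ± 0.48, adjusted p = 0.243). For these 5 mRNAs a difference was not detectable with this spread, which does not show that there was none.

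In the YTHDF3 RIP Bace1 was enriched 1.65-fold and Sncb depleted 2.66-fold. In the fit of all libraries 1 of 7 was enriched, where 16.7% of all genes tested were, and 1 of 7 was depleted, where 23.2% were. The YTHDF3 and Input libraries did not overlap in 3 of the 7 (Aplp2, Bace1 and Psen2), where 56.1% of all genes tested had no overlap. The median log2 fold change was -0.41 for the 7 and 0.05 for all genes tested. The RIPs share their Input libraries, so like signs in different RIPs are not independent.

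Bace1 measured 163.7, 156.9 and 121.0 CPM in the YTHDF3 RIP, above every Input library (log2 fold change 0.72 ± 0.23, edgeR adjusted p = 0.0285). The call was lost without Input replicate 2 or 3 and without YTHDF3 replicate 1 or 2, with adjusted p from 0.0752 to 0.0911. Sncb measured 103.9, 61.3 and 32.9 CPM and overlapped Input, since YTHDF3 replicate 1 exceeded Input replicate 3 (log2 fold change -1.41 ± 0.48, edgeR adjusted p = 0.0359). It did not pass without Input replicate 1 or 2 or without YTHDF3 replicate 2 or 3, with adjusted p from 0.0773 to 0.138, nor with library size alone (-1.12, adjusted p = 0.0531) or in the fit of these 2 groups alone (-1.39, adjusted p = 0.0619).

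App at 2174, 1697 and 1285 CPM and Aplp1 at 498.3, 332.2 and 270.2 CPM both overlapped Input. Their log2 fold changes were 0.65 ± 0.26 (edgeR adjusted p = 0.0700) and -0.62 ± 0.25 (adjusted p = 0.0672). Aplp2 at 600.1, 608.3 and 493.9 CPM was above all of Input (0.50 ± 0.24, adjusted p = 0.123), Psen2 at 9.63, 7.52 and 6.95 CPM was below all of Input (-0.41 ± 0.19, adjusted p = 0.113), and Prnp at 115.4, 97.2 and 63.9 CPM overlapped it (-0.49 ± 0.30, adjusted p = 0.221).

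For YTHDF3 the replicate numbers pair the libraries, since the deviations of same-numbered YTHDF3 and Input libraries from their group means correlated at 0.835, 0.539 and 0.812 across genes. In the fit of these 2 groups with the replicate number as a block, all 7 mRNAs passed, 3 as enriched, where 36.5% of all genes tested were (6144), and 4 as depleted, where 32.3% were (5436). The log2 fold changes of same-numbered libraries for Sncb were -1.32, -1.56 and -1.42, although its levels ran from 87.9 to 259.3 CPM in Input and from 32.9 to 103.9 CPM in the YTHDF3 RIP. Those of App were 0.69, 0.69 and 0.54, those of Aplp2 were 0.51, 0.37 and 0.67, and those of Bace1 were 0.66, 0.81 and 0.70. Aplp1 (-0.52, -0.70 and -0.70), Prnp (-0.29, -0.62 and -0.61) and Psen2 (-0.27, -0.48 and -0.52) were lower in every pair. The blocked edgeR estimates were 0.70 for App (adjusted p = 4.64e-06), 0.57 for Aplp2 (3.01e-05), 0.78 for Bace1 (2.15e-07), -0.58 for Aplp1 (1.05e-05), -0.36 for Psen2 (0.0164), -1.38 for Sncb (9.51e-12) and -0.45 for Prnp (0.000135). The fit of these 2 groups without the block called 3741 genes enriched and 4114 depleted. The p-values of the blocked fit measure the spread of the ratio between the pairs, without the spread in level that a pair shares. The pairing was read from these same counts.

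**Figure D3:**
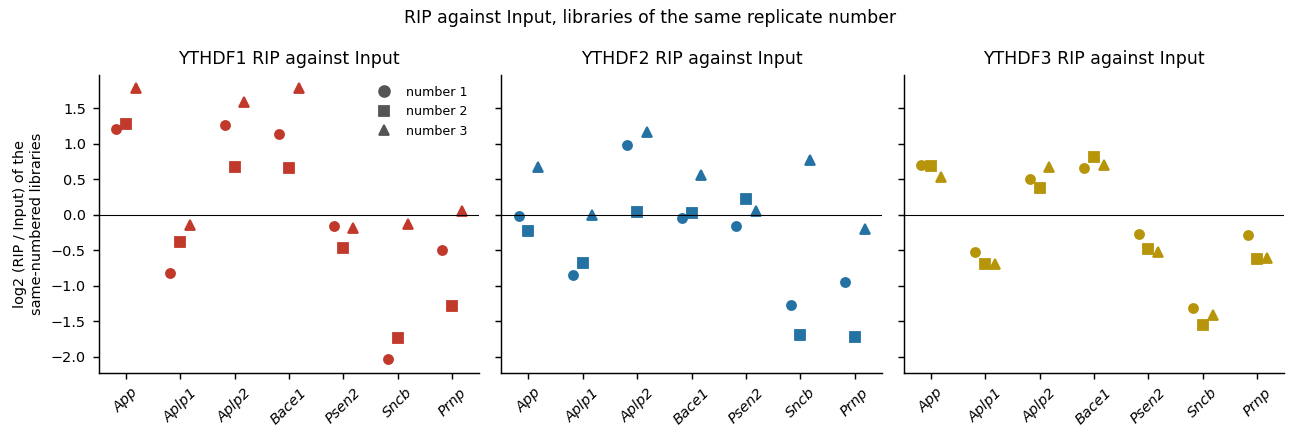
Log2 ratio of each RIP library to the Input library of the same replicate number, for each mRNA. The symbols mark the replicate number. In the YTHDF3 RIP the 3 ratios of each mRNA lie close together and on 1 side of 0 (Sncb from -1.56 to -1.32). In the YTHDF1 and YTHDF2 RIPs they spread further, but there the numbers were not seen to pair the libraries with Input.

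Between the RIPs, App and Bace1 separated YTHDF1 from YTHDF2. App was 2.39-fold higher in the YTHDF1 RIP than in the YTHDF2 RIP (log2 difference 1.26 ± 0.27, edgeR adjusted p = 0.00489), and Bace1 was 2.08-fold higher (1.05 ± 0.24, adjusted p = 0.00632). The rule between RIPs asked for a fold change of at least 2, so 2 of 7 passed where 11.4% of all genes tested were higher with YTHDF1, and 0 of 7 were lower where 6.13% were. In both mRNAs every YTHDF1 library exceeded every YTHDF2 library, and no overlap was seen for 37.1% of all genes tested. Bace1 is close to the 2-fold limit and fell below it without YTHDF1 replicate 1 (0.98), without YTHDF1 replicate 3 (0.81) and without YTHDF2 replicate 2 (0.98), while App passed in all 6 such fits (1.08 to 1.38). With library size alone neither passed, at 0.81 for App and 0.60 for Bace1.

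No mRNA of the 7 passed between YTHDF1 and YTHDF3, where 11% of all genes tested were higher and 3.62% lower, or between YTHDF2 and YTHDF3, where 3.97% were higher and 1.17% lower. App (log2 difference 0.75 ± 0.27, edgeR adjusted p = 0.0639) and Aplp2 (0.66 ± 0.24, adjusted p = 0.0715) had higher values in every YTHDF1 library than in any YTHDF3 library, and 33.3% of all genes tested did not overlap either. With library size alone the difference was 0.053 for App and -0.040 for Aplp2. At an unadjusted p under 0.05, these 2 stood out between YTHDF1 and YTHDF3, and Bace1 (-0.55 ± 0.23) and Psen2 (0.45 ± 0.20) did between YTHDF2 and YTHDF3, where their libraries did not overlap, as for 36.1% of all genes tested. DESeq2 called none of the 7 in either comparison.

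The ratio of a gene to its partner within a library does not depend on the scaling between libraries. Its size depends on the gene lengths used, as given for App and Aplp1 above, but its log2 difference from Input does not. The Aplp1 to App ratio of counts per kilobase of exon was 2.30, 2.22 and 2.13 in Input. With YTHDF1 it was 0.564, 0.701 and 0.558, with YTHDF2 1.29, 1.62 and 1.33, and with YTHDF3 0.987, 0.844 and 0.906. No RIP library reached the Input range, and the log2 ratio differed from Input by -1.87 with YTHDF1, -0.65 with YTHDF2 and -1.28 with YTHDF3. The exact two-sided permutation test gave p = 0.1 for each, the smallest it can give with 3 against 3 (0.25 after Benjamini-Hochberg adjustment over 15 tests).

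The Aplp2 to App ratio was above all of Input in the YTHDF2 RIP, at 1.40, 1.19 and 1.09 against 0.696, 0.989 and 0.776 (log2 difference 0.59, exact permutation p = 0.1, adjusted 0.25), and overlapped Input with YTHDF1 (-0.24) and YTHDF3 (-0.12). The ratio of Bace1 to Adam10, the main alpha-secretase, overlapped Input in each RIP, with differences of 0.19, -0.00026 and 0.54 (exact permutation p = 0.8, 1.0 and 0.2).

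Enrichment in each RIP went with mRNA length across all genes, which matters for mRNAs of such unlike length. Across 13337 protein-coding genes the Spearman correlation between the length of the main mRNA and the log2 fold change was 0.61 for YTHDF1, 0.41 for YTHDF2 and 0.62 for YTHDF3, given as a description since genes share libraries. The GGACT density (0.02, 0.10 and 0.05) and the G and C content (-0.08, 0.15 and -0.03) had weaker correlations. The density is per kilobase, and the number of GGACT in an mRNA was not tested in this way. Each of the 7 was set beside the mRNAs of its own length bin, of 10 bins with near-equal numbers of mRNAs.

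In the YTHDF1 RIP, App at 1.40 exceeded 90.4% of the 1329 mRNAs between 3154 and 3670 bases, whose median was 0.20, and Aplp2 at 1.17 exceeded 85.8% of the same mRNAs. Bace1 at 1.22 was not far from the median of 0.92 among mRNAs between 5157 and 6745 bases, and exceeded 64.1% of them. Sncb at -1.42 exceeded 19.9% of mRNAs between 1288 and 1805 bases, whose median was -0.77. Aplp1, Psen2 and Prnp stood at 33.5%, 57.5% and 43.1% among mRNAs of like length.

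In the YTHDF2 RIP, Aplp2 exceeded 79.3% of mRNAs of like length and Prnp 17.9%, with the other 5 between 25.4% (Aplp1) and 61.5% (Psen2). In the YTHDF3 RIP, App exceeded 78.3% and Aplp2 68.9%, Bace1 was near the middle at 55.5%, and Sncb was at 21.1%. When a smooth length trend by main mRNA was removed from each library, App (1.30, edgeR adjusted p = 0.00180) and Aplp2 (0.95, adjusted p = 0.00552) stayed enriched with YTHDF1. Bace1 (0.35, adjusted p = 0.193) and Sncb (-0.65, adjusted p = 0.320) did not pass. With the summed length of all exons, which is 12996 bases for App, App (0.33, adjusted p = 0.247) and Sncb (-1.01, adjusted p = 0.105) did not pass. Aplp2 (0.82, adjusted p = 0.0121) and Bace1 (0.81, adjusted p = 0.0112) did. Under both lengths, Sncb lost its call with YTHDF1, Aplp2 and Prnp theirs with YTHDF2, and Bace1 and Sncb theirs with YTHDF3.

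**Figure D4:**
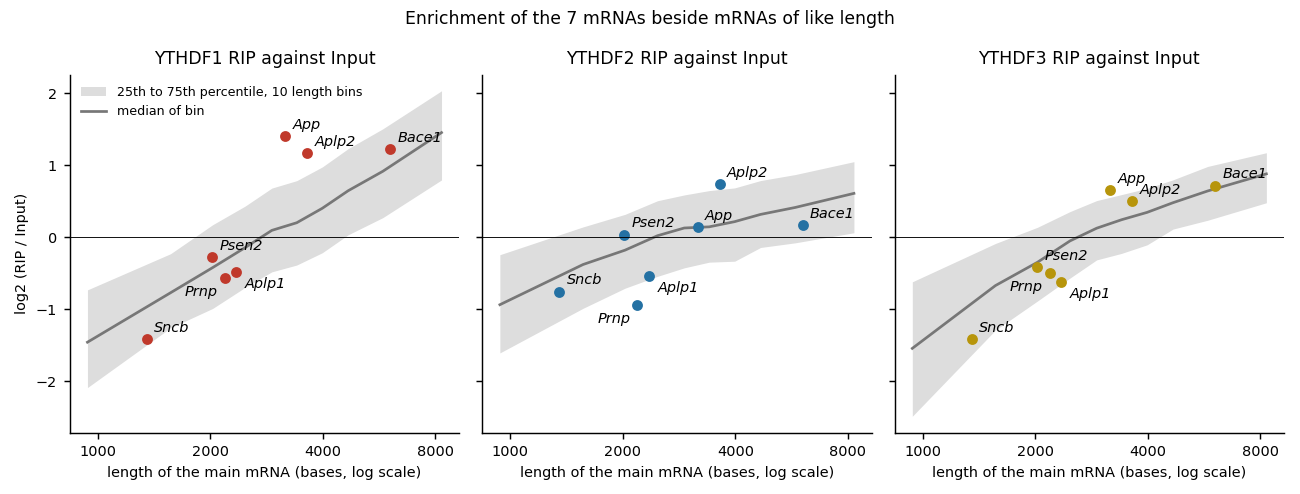
Log2 fold change of each RIP over Input against the length of the main mRNA on a log axis. Grey lines and bands are the median and the 25th to 75th percentile of 10 length bins of 13337 protein-coding genes, and coloured points are the 7 mRNAs. App and Aplp2 lie above the band with YTHDF1, and Bace1 lies within it in each RIP.

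For each of the 7, the genes with the most similar profile were found among 9628 protein-coding genes with a mean of at least 100 normalised counts, by the Euclidean distance of log2 CPM centred on the Input mean over the 12 libraries. The nearest to App were Nkrf (distance 0.62) and Piezo2 (0.64), and to Bace1 Foxk2 (0.44) and Bicral (0.44). Those nearest to Aplp2 were Aars2 (0.55) and Tigd2 (0.61), to Aplp1 Tusc3 (0.45) and Gp1bb (0.48), and to Psen2 Stub1 (0.44) and Mcoln1 (0.47). Prnp was nearest to St3gal5 and Lrrc28 (both 0.53), and Sncb to Slc17a7, the vesicular glutamate transporter VGLUT1 of excitatory neurons, and Cyb5r1 (both 0.94). Among the 7 themselves App and Bace1 were the closest pair, at 0.74.

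The other genes of amyloid precursor processing did not move as a block. Of 10 further secretase genes, 1 was enriched and 2 were depleted with YTHDF1, and 0 and 2 with YTHDF2 and with YTHDF3. Over all genes tested, 27.5% were enriched and 26.1% depleted with YTHDF1, 16.1% and 19.3% with YTHDF2, and 16.7% and 23.2% with YTHDF3, so the counts of depleted secretase genes are near the background. The list had median log2 fold changes of -0.07, -0.20 and 0.08. Adam10, the main alpha-secretase, lay between 58.1 and 60.2 CPM in Input and between 80.7 and 178 CPM in the YTHDF1 RIP, where it was enriched (log2 fold change 1.08 ± 0.25, edgeR adjusted p = 0.00374). Psenen, which encodes the small gamma-secretase subunit PEN-2, fell from 15.7 ± 1.82 CPM in Input to 2.50 ± 1.24 with YTHDF1, 2.83 ± 0.220 with YTHDF2 and 1.51 ± 0.253 with YTHDF3. Its log2 fold changes of -2.69 ± 0.36, -2.47 ± 0.37 and -3.37 ± 0.37 were the lowest of the list in each RIP. Adam9, a further metalloprotease, did not pass in any RIP (-0.43, -0.01 and -0.23).

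Of 20 genes of APP adaptors and trafficking, 6 were enriched and 4 depleted with YTHDF1, 4 and 1 with YTHDF2, and 3 and 3 with YTHDF3. The same shares of all genes apply, and 6 of 20 and 3 of 20 are near the 27.5% and 16.7% of all genes enriched with YTHDF1 and YTHDF3. Their medians were 0.25, 0.05 and 0.29. Apba2, which encodes the adaptor X11beta (Mint2), rose with YTHDF1 (0.85 ± 0.22, edgeR adjusted p = 0.00764) and YTHDF3 (0.67 ± 0.22, adjusted p = 0.0320), and its paralog Apba1 did not pass (0.31, -0.26 and 0.74). Itm2b, the BRI2 protein that binds APP, fell in each RIP (-0.98, -0.64 and -0.96). The endocytic receptors Lrp1 (2.42, 1.43 and 1.09) and Sorl1 (2.62, 1.52 and 1.05, the last of which did not pass) were named after their values were seen.

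Of the substrates of BACE1, with YTHDF1 8 of 11 tested were enriched and 0 depleted, where 27.5% and 26.1% of all genes tested were, with a median of 1.21 beside 0.02 over all genes. With YTHDF2 it was 2 and 0 (16.1% and 19.3% of all genes, list median 0.15), and with YTHDF3 3 and 0 (16.7% and 23.2%, list median 0.73). The list was not set beside mRNAs of like length, so the part of length was not tested. Like the other lists, it was chosen with earlier results of these data known. L1cam, a cell adhesion protein of axons, went from 295.4 ± 52.8 CPM in Input to 872.0 ± 146.7 in the YTHDF1 RIP (log2 fold change 1.56 ± 0.21), and Sez6l rose from 265.8 ± 37.2 to 664.8 ± 121.9 CPM (1.32 ± 0.22). Both also rose with YTHDF3 (0.88 and 0.94), whereas Sez6l2 passed only with YTHDF1 (0.83, against 0.15 and 0.38), though no difference of Sez6l2 between RIPs passed its own test. Chl1, a close relative of L1cam named after its values were seen, had the highest value of the list with YTHDF1, 3.20.

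Of the synuclein and Parkinson disease genes, 1 of 10 tested was enriched and 5 were depleted with YTHDF1, where 27.5% and 26.1% of all genes were. With YTHDF2 it was 2 and 1 (16.1% and 19.3% of all genes), and with YTHDF3 1 and 6 (16.7% and 23.2%). The list medians were -0.70, -0.38 and -0.76, beside 0.02, 0.02 and 0.05 over all genes tested. Uchl1, a neuronal deubiquitinase, fell in each RIP (-1.56, -1.16 and -2.07), and Pink1, a mitochondrial kinase, fell with YTHDF1 (-0.97) and YTHDF3 (-0.99). Lrrk2, a large kinase named after its values were seen, was the gene enriched in each RIP (1.45, 1.03 and 1.22). Of the prion family only Sprn, which encodes Shadoo, was tested beside Prnp, and it did not pass (0.68, -0.70 and -0.15).

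**Figure D5:**
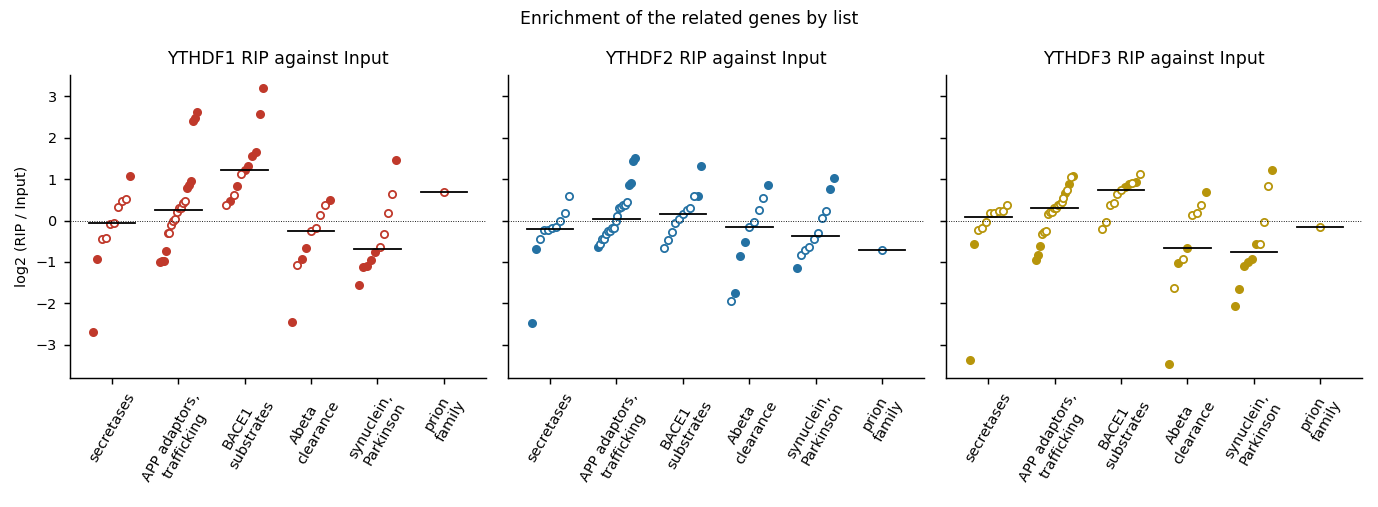
Log2 fold change of each RIP over Input for the tested genes of 6 related lists, which leave out the 7 mRNAs. Filled points passed the test, open points did not, and bars are list medians, 1.21 for BACE1 substrates and -0.70 for synuclein and Parkinson disease genes with YTHDF1.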

How the data were processed

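RNA was sequenced from 12 libraries in the 4 groups that the labels give, with 3 replicates in each. The authors extracted UMIs with UMI-tools 1.1.1, trimmed with cutadapt 3.4, aligned to mouse build GRCm38 with STAR 2.7.7a, removed duplicates, and counted reads by gene and strand with featureCounts 2.0.1 (Ensembl annotation). The authors deposited these counts unnormalised. Per the file headers, reads over several genes and all alignments of multimapping reads were counted, so counting error is understated for shared sequence. The authors also deposited, for each protein, tables of DESeq2 results. Of these only the mean normalised signal in the YTHDF1 table was read, to see which genes it lists, and the authors' fold changes and p-values were not used.

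Genes with a mean of at least 10 DESeq2-normalised counts (16820) were fitted in edgeR 4.0.16 (R 4.3.3) with TMM factors computed after the filter and 1 quasi-likelihood model of 4 groups. The biological coefficient of variation was 0.322. SE is the size of the log2 fold change over the square root of F. Calls required an adjusted p of at most 0.05 and a level at least 25% above the other against Input, or a 2-fold difference between RIPs. Total counts of 6020072 to 38909592 leave the spread between replicates, not counting, as the main error, except for Psen2. Ratios used exact permutation tests in scipy 1.17.1. Lengths and sequences came from GENCODE M21 on the same build. The procedure was tested on simulated data. Loess curves of span 0.3 removed length trends. Alternatives were DESeq2 1.42.0, other scalings, no filter, replicate blocks, 2-group fits, length trends and leaving out each library. The trend by main mRNA length was added after seeing the data.

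All 7 members were named in every comparison, with, from each related list, the 3 tested genes highest in Input per kilobase of exon, and for each member the 2 genes nearest in profile and any overlapping gene. Some results that this rule or the ratios within a library would give are not reported here. The members and lists were chosen with earlier results of these data known.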

Additional observations from a re-analysis of the deposited data

How the results depend on the processing

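Over 459 values of an mRNA, a comparison and an alternative, 362 kept their sign and their side of the threshold, 60 lost a call, 21 gained one and 16 changed sign, 0 of these being a called value. These values cover all 7 mRNAs against Input, but between RIPs only those with an unadjusted edgeR p under 0.05 in the fit reported. The enrichment of App, Aplp2 and Bace1 with YTHDF1 held in each fit without 1 of the Input or YTHDF1 libraries and under every scaling. With the length trend removed by summed exons App did not pass, by main mRNA Bace1 did not, and in the 2-group fit with the replicate block none did. For the changes given below the cause was not tested. With library size alone, 4 of the 7 were depleted with YTHDF1, 3 were enriched and 0 depleted with YTHDF3, 0 were higher with YTHDF1 than with YTHDF2, and Aplp2 was at -0.040 between YTHDF1 and YTHDF3. Over all genes this scaling gave 3073 enriched and 6139 depleted with YTHDF1 (4624 and 4386 in the fit reported), and 4821 and 2996 with YTHDF3 (2812 and 3906). It gave 1063 higher and 2752 lower between YTHDF1 and YTHDF2 (1925 and 1031), 762 and 3393 between YTHDF1 and YTHDF3 (1842 and 609), and 718 lower between YTHDF2 and YTHDF3 (197). With TMM over protein-coding genes, 4 were depleted with YTHDF1, 0 enriched with YTHDF2, 2 depleted with YTHDF3 and 1 higher between YTHDF1 and YTHDF2, Psen2 was at -0.073 with YTHDF2, and 951 genes were lower between YTHDF1 and YTHDF3. Over all genes the counts were 5462 depleted with YTHDF1, 2182 enriched with YTHDF2, 4074 depleted with YTHDF3 and 1584 higher between YTHDF1 and YTHDF2.

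Without the filter on low counts, Psen2 was at -0.066 with YTHDF2, 0 of the 7 were enriched and 2 depleted with YTHDF2, 1174 genes were lower between YTHDF1 and YTHDF3, and 1043 were higher and 769 lower between YTHDF2 and YTHDF3. DESeq2 called 2 enriched and 2 depleted with YTHDF3, where it called 3422 and 4051 over all genes, and 346 genes lower between YTHDF2 and YTHDF3. Fits of 2 groups alone gave 0 of the 7 depleted with YTHDF3, 892 genes higher between YTHDF1 and YTHDF3 and 428 lower between YTHDF2 and YTHDF3.

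Removing the length trend by summed exons left 0 of the 7 depleted with YTHDF1, 0 enriched and 0 depleted with YTHDF2 and with YTHDF3, and 0 higher between YTHDF1 and YTHDF2. Over all genes, 4129 were depleted with YTHDF1, 2487 enriched and 2694 depleted with YTHDF2, and 2349 and 3112 with YTHDF3. App was then at -0.26 with YTHDF2 and -0.039 with YTHDF3, and with YTHDF2 Bace1 was at -0.042 and Psen2 at -0.018. With the replicate block as well, the counts of the 7 were again 0, and these values were -0.25, -0.044, -0.036 and -0.0096. By main mRNA length, Psen2 was at 0.053 with YTHDF1 and Bace1 at -0.20 with YTHDF2, 0 of the 7 were depleted with YTHDF1, 0 enriched and 0 depleted with YTHDF2 and with YTHDF3, and 1 was higher between YTHDF1 and YTHDF2.

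Deviations from the group means of same-numbered libraries correlated at 0.0895, -0.269 and -0.329 between YTHDF1 and Input and at 0.186, -0.326 and -0.318 between YTHDF2 and Input, so the numbers were not seen to pair these libraries, although the study's methods describe 1 lysate and Input per replicate. Whether a number marks the same lysate in these groups was not tested, and the blocked counts for YTHDF1 and YTHDF2 rest on it. The replicate block in the fit of all libraries changed no call of the 7. In fits of 2 groups alone with the replicate block, 0 of the 7 were enriched and 0 depleted with YTHDF1 and with YTHDF2, 3 were enriched and 4 depleted with YTHDF3, and 1 was higher between YTHDF1 and YTHDF2. Over all genes these fits gave 2390 enriched with YTHDF1 and 6144 with YTHDF3, 328 higher and 101 lower between YTHDF1 and YTHDF3, and 294 and 98 between YTHDF2 and YTHDF3. Samples did not each correlate best with their own number, except between YTHDF3 and Input. Input replicate 3 correlated best with replicate 2 of YTHDF1 (0.471) and of YTHDF2 (0.568).

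Leaving out each of the 6 libraries of a comparison in turn gave 0 to 2 of the 7 depleted with YTHDF1, 0 to 1 enriched and 0 to 1 depleted with YTHDF2, 0 to 2 enriched and 0 to 2 depleted with YTHDF3, and 1 to 2 higher between YTHDF1 and YTHDF2. App ranged from -0.015 to 0.32 and Psen2 from -0.047 to 0.10 with YTHDF2. Genes lower between YTHDF1 and YTHDF2 numbered 783 to 1945, those lower between YTHDF1 and YTHDF3 472 to 1001, and those higher and lower between YTHDF2 and YTHDF3 114 to 350 and 61 to 152. Psen2 had the fewest counts, at 78 to 248 per library, and the Prnp count includes reads shared with Prn.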

Other observations

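Genes that degrade or clear amyloid-beta were listed apart from those that make it. Of 9 tested, 1 was enriched and 3 depleted in each RIP. Of all genes tested, 27.5%, 16.1% and 16.7% were enriched with YTHDF1, YTHDF2 and YTHDF3, and 26.1%, 19.3% and 23.2% depleted. The list had median log2 fold changes of -0.26 with YTHDF1, -0.15 with YTHDF2 and -0.67 with YTHDF3, beside 0.02, 0.02 and 0.05 over all genes tested. The depleted ones were Cst3, Ctsd and Ctsb in each RIP, and the comparisons share their Input libraries. Cst3 encodes cystatin C, a secreted protease inhibitor abundant in astrocytes. It ranged from 77.7 to 381.2 CPM in Input, against 32.2 to 77.6 CPM with YTHDF1, 65.2 to 92.5 CPM with YTHDF2 and 10.3 to 35.03 CPM with YTHDF3 (log2 fold changes -2.46, -1.75 and -3.47). Ctsd, the lysosomal protease cathepsin D, had -0.67, -0.51 and -0.67. Apoe, the lipid carrier of astrocytes, did not pass in any RIP (-1.07, 0.55 and -1.63), and its Input libraries spread from 278.7 to 2327 CPM. The gene enriched with YTHDF1 and YTHDF3 was Ide, the insulin-degrading enzyme (0.48 and 0.69), and with YTHDF2 it was Ece2, an endothelin-converting enzyme (0.86), both named after their values were seen. Astrocyte markers also spread within groups, and their part in the levels of Cst3 and Apoe was not tested.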
